A study of Mus musculus with 16 samples.

Results

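The SLC25 genes encode the mitochondrial solute carriers, and their transcripts were followed in hearts of mice lacking the muscle ring finger proteins MuRF1 and MuRF2. Family members were taken to be the gene probes of the array whose gene name, or current symbol by accession, starts with Slc25a and a number. That gave 70 of 41174 gene probes and 44 genes. Of these genes, 32 had a probe well above background in the heart channel on at least 4 of the 16 arrays and were tested, among 12331 genes in all. The 12 others (Slc25a2, Slc25a15, Slc25a18, Slc25a21, Slc25a23, Slc25a31, Slc25a34, Slc25a35, Slc25a40, Slc25a41, Slc25a42 and Slc25a48) were well above background on at most 3 arrays and got no test. A further probe, under the same older gene name as the Slc25a40 probes, was well above background on 9 arrays. It was tied to the family only by a synonym and was set aside.

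Solute carriers of this family sit in the inner mitochondrial membrane and move metabolites that cannot cross it on their own, such as ADP and ATP, phosphate, carboxylic acids, amino acids, acylcarnitine, cofactors and iron. In heart muscle the ADP/ATP and phosphate carriers feed the ATP synthase, the carnitine carrier brings in fatty acids, and the aspartate/glutamate and oxoglutarate/malate carriers make up, with cytosolic and mitochondrial enzymes, the malate-aspartate shuttle that brings the electrons of cytosolic NADH to the respiratory chain.

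Hearts came from mice of 12 weeks in 4 genotypes, with 4 biological replicates each. Double null mice were homozygous null for both genes (MuRF1 -/-, MuRF2 -/-). MuRF1 null MuRF2 het mice kept 1 MuRF2 allele (MuRF1 -/-, MuRF2 +/-), and MuRF1 het MuRF2 null mice kept 1 MuRF1 allele (MuRF1 +/-, MuRF2 -/-). The reference hearts were wild type (MuRF1 +/+, MuRF2 +/+), and the labels call the groups strain-matched without naming their strain, sex or the design of the alleles. Heart RNA, labelled with Cy5, was hybridised against a pool of whole C57BL/6 pups of postnatal day 1, labelled with Cy3. Each value below is the log2 ratio of heart over pup pool for 1 probe, so a value of 1 means 2 times the signal of the pool, and probes of different genes cannot be ranked by it. A difference is a log2 difference between group means, with its standard error or 95% interval from limma, and the words rose and fell are kept for genes whose p value adjusted over all 12331 genes by the Benjamini-Hochberg method was under 0.05.

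Arrays differed in brightness by genotype. Double null arrays had 6037 to 14503 probes well above background, beside 6402 to 15067 in MuRF1 null MuRF2 het, 16129 to 17391 in MuRF1 het MuRF2 null and 15171 to 16664 in wild type hearts. Of the 32 carriers tested, 13 to 27 were above background in double null hearts, 19 to 29 in MuRF1 null MuRF2 het, 31 to 32 in MuRF1 het MuRF2 null and 30 to 32 in wild type hearts. Slides 1 and 3 each held 2 double null and 2 wild type arrays. All MuRF1 null MuRF2 het arrays shared slide 2 and all MuRF1 het MuRF2 null arrays shared slide 4, and for both genotypes the slide and the genotype cannot be told apart. The MuRF1 het MuRF2 null arrays were also read with a later version of the image software. Trim63, the MuRF1 gene, averaged -0.72 in double null hearts and -0.64 in MuRF1 null MuRF2 het hearts, against 1.94 with 1 MuRF1 allele and 2.63 in wild type hearts. The Trim55 (MuRF2) probe did not differ by the test in any comparison, and it is not known whether it lies in the deleted part. Troponin T (Tnnt2) averaged 3.72 to 4.38 in the 4 groups and the fetal liver gene Afp -6.30 to -4.86, on the heart and pup side of the ratio. Not every heart muscle gene was as even. The myosin gene Myh6 had a mean of 2.45 (SD 0.61) without either protein and 3.97 (SD 0.15) for wild type. With 1 MuRF2 allele its mean was 3.33, and with 1 MuRF1 allele 4.09. The actin gene Actc1 averaged 2.56 to 2.80.

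The probes used for Slc25a4 and Slc25a5, the genes of ADP/ATP carriers 1 and 2, target the same stretch of both messages. They are shown because they overlap by 54 bases and share 45 of these (83.3%), with 17 identical bases in a row at most. Capitals mark the 9 bases that differ.
Slc25a4 (chromosome 8): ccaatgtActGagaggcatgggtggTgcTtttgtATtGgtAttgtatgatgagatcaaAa
Slc25a5 (chromosome X): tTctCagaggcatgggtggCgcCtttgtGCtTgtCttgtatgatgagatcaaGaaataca
Some signal of either gene may therefore come from the other, which was not tested. A second Slc25a4 probe, with other sequence, is set beside the first.
Slc25a4 (chromosome 8): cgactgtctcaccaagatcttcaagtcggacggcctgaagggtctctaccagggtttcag
For Slc25a3, the phosphate carrier, 2 probes passed. The first covers 60 bases of message whose coordinates in the array file span 542 bases, as a probe across an exon junction would.
Slc25a3 (chromosome 10): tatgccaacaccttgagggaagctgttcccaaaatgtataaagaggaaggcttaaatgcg
Slc25a3 (chromosome 10): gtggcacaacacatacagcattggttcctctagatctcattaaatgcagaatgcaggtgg

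Loss of both proteins was addressed by setting double null against wild type hearts. The aspartate/glutamate carrier Slc25a12, the phosphate carrier Slc25a3 and the glutamate carrier Slc25a22 fell with the lowest adjusted p values of the family. The Slc25a22 probe was well above background on 1 of 4 double null arrays. In all, 9 of 32 carriers passed (28.1%), beside 22.3% of all genes tested. Of these, 7 fell (21.9% of carriers, beside 12.0% of all genes) and 2 rose (6.25%, beside 10.2%). The 7 include Slc25a44, which adds nothing to the count, as its probe was well above background on 0 double null and 4 wild type arrays. The share of carriers called is near that of all genes. Without adjustment, 17 carriers had a p under 0.05. This was not counted over all genes, so it is no result about the family. The median difference was -0.09 over the carriers and 0.01 over all genes. The 4 double null arrays lay wholly above or below the 4 wild type arrays for 10 carriers, beside 25.5% of all genes.

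**Figure D1:**
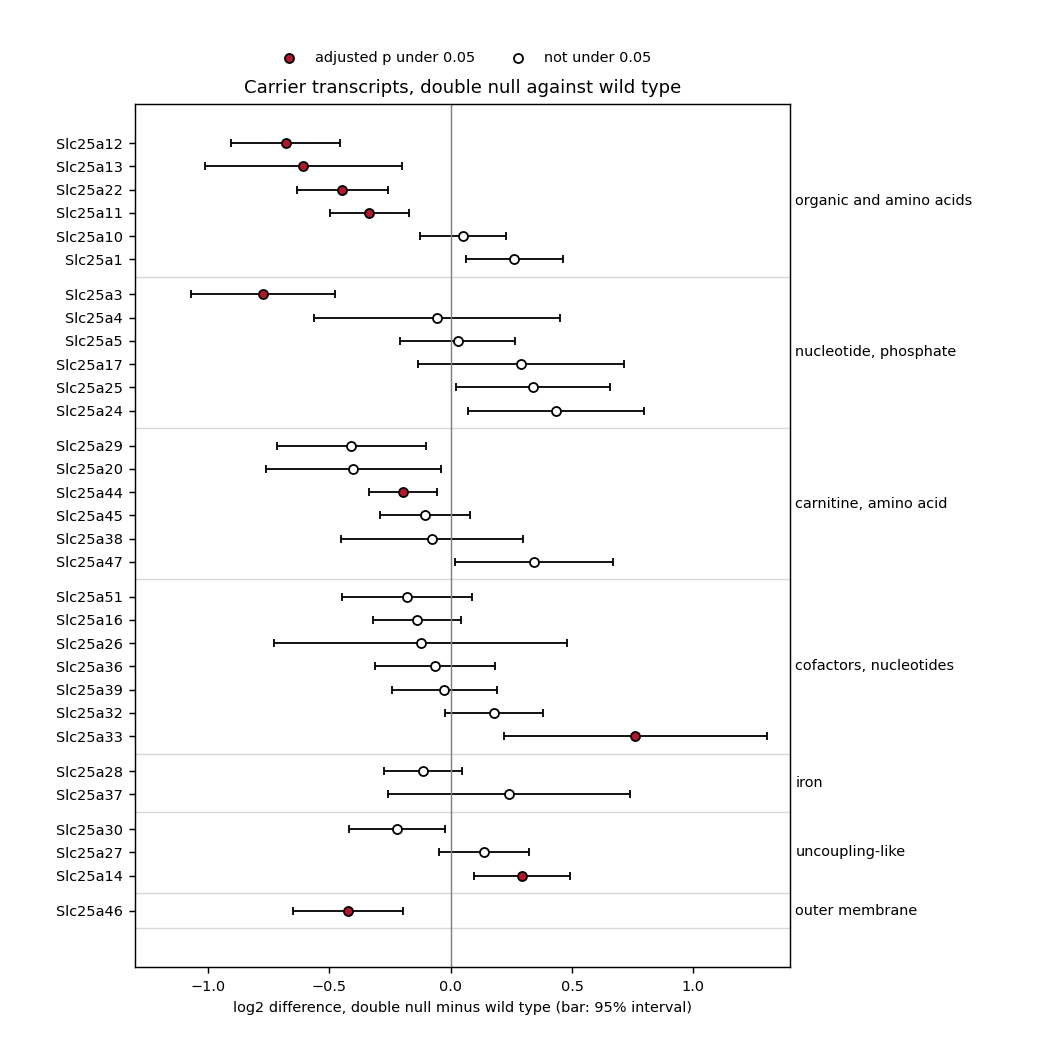
Log2 difference of double null minus wild type hearts (horizontal axis) for 31 of the 32 carriers tested, grouped by what they transport. Points are differences, bars 95% intervals from limma over 16 arrays, and filled points have an adjusted p under 0.05; 7 filled points lie left of 0 and 2 lie right of it.

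The carriers of dicarboxylates, tricarboxylates and amino acid anions had the most calls. Of 6 measured members, 4 fell, none rose and the median difference was -0.39. Over all genes 12.0% fell and 10.2% rose, the shares to set beside this and the later list counts of double null against wild type hearts. Slc25a12 (aralar) and Slc25a13 (citrin) exchange mitochondrial aspartate for cytosolic glutamate, Slc25a11 exchanges malate for oxoglutarate, and Slc25a22 takes up glutamate with a proton.

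Slc25a12 stood at 0.94, 0.45, 0.81 and 0.78 in double null hearts, against 1.32, 1.34, 1.63 and 1.41 in wild type hearts. It stood at 0.84, 1.14, 1.12 and 1.13 in MuRF1 null MuRF2 het hearts and at 1.11, 1.26, 1.19 and 1.14 in MuRF1 het MuRF2 null hearts. Every double null heart was below every wild type heart, and all 8 hearts of the other genotypes were also below the lowest wild type heart. In double null hearts Slc25a12 fell by 0.68 ± 0.11 (SE) against wild type, a 1.60-fold difference (adjusted p = 0.000774, limma), and it had the lowest adjusted p of the family.

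Slc25a13 read 1.19, 0.91, 1.35 and 1.11 in double null hearts, against 1.45, 1.86, 2.06 and 1.61 in wild type hearts. The values were 0.62, 1.70, 1.42 and 1.56 in MuRF1 null MuRF2 het and 1.85, 1.95, 1.69 and 1.78 in MuRF1 het MuRF2 null hearts. Double null and wild type hearts did not overlap, although the highest double null value was close to the lowest wild type value. Slc25a13 fell by 0.61 ± 0.19 (1.52-fold, adjusted p = 0.0345, limma). That call was lost when any of 6 single arrays was left out, and with the number of bright probes as a covariate the difference was -0.15.

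For Slc25a11 the 4 double null values were 1.69, 1.98, 1.87 and 1.82, against 2.14, 2.25, 2.14 and 2.18 in wild type hearts. MuRF1 null MuRF2 het hearts gave 1.96, 2.05, 2.20 and 2.03, and MuRF1 het MuRF2 null hearts 1.95, 2.04, 1.92 and 1.96. All wild type hearts lay within a narrow band above all double null and all MuRF1 het MuRF2 null hearts, while 1 MuRF1 null MuRF2 het heart reached into the band. Slc25a11 fell by 0.34 ± 0.08 (1.26-fold, adjusted p = 0.00739, limma). With the spread of arrays scaled to be equal, this difference was -0.10 (adjusted p = 0.675), which ends the call.

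Slc25a22 was at -0.10, -0.13, -0.01 and 0.04 in double null hearts, against 0.38, 0.25, 0.42 and 0.52 in wild type hearts. It was at -0.11, 0.21, 0.14 and 0.22 in MuRF1 null MuRF2 het hearts and at 0.06, -0.04, 0.18 and -0.03 in MuRF1 het MuRF2 null hearts. No heart of the other 3 genotypes reached the lowest wild type value. Slc25a22 fell by 0.45 ± 0.09 (adjusted p = 0.00332, limma). Its probe was well above background on 1 of 4 double null arrays and on all 4 wild type arrays, so no fold is given. On the authors' own log ratios the difference was -1.25.

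Slc25a1, which exports citrate for lipid synthesis, went the other way without passing. Its values were -0.16, 0.07, -0.07 and -0.34 in double null hearts, against -0.28, -0.30, -0.59 and -0.37 in wild type hearts. MuRF1 null MuRF2 het hearts stood at -0.10, -0.26, -0.25 and -0.16, and MuRF1 het MuRF2 null hearts at -0.78, -0.62, -0.63 and -0.69, below every other heart. Its difference between double null and wild type was 0.26 (95% interval 0.06 to 0.46, adjusted p = 0.0546, limma), with its probe above background on 1 of 4 double null arrays, and 1 double null heart lay among the wild type hearts. The dicarboxylate carrier Slc25a10 differed by 0.05 (adjusted p = 0.676).

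**Figure D2:**
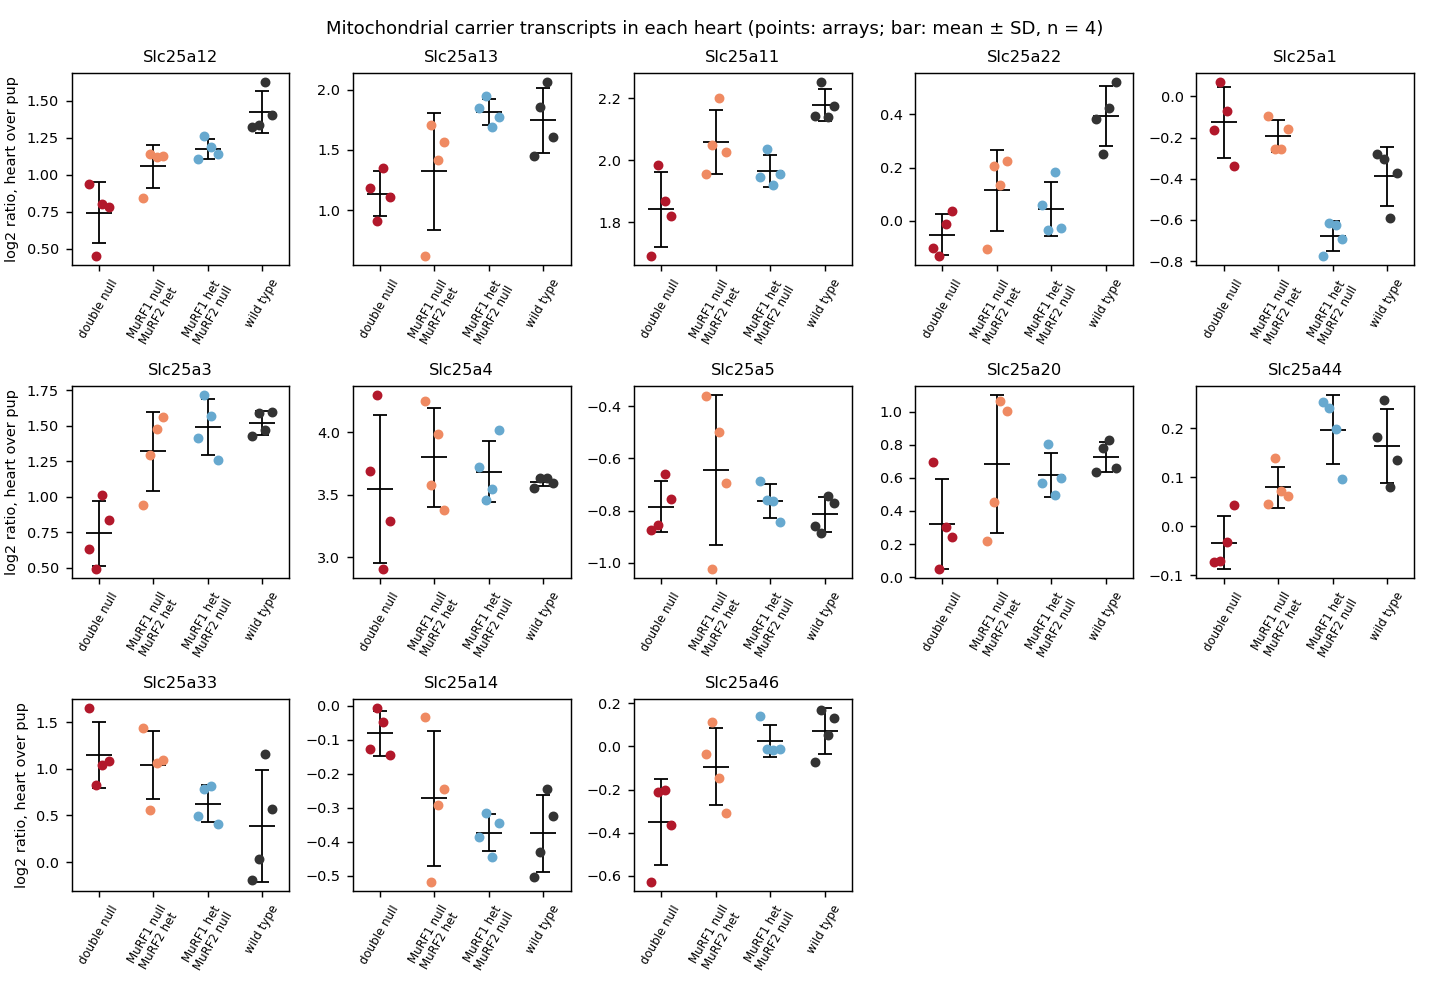
Log2 ratio of heart over pup pool (vertical axes, 1 scale per gene) for 13 carriers in the 4 genotypes, with points for the 4 arrays of a group and bars for mean ± SD. Slc25a12, Slc25a3 and Slc25a22 show all double null points under all wild type points. The wild type points of Slc25a4 are from saturated spots.

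Enzymes that work with these carriers were lower as well. Of the 4 malate-aspartate shuttle enzymes, 3 fell in double null hearts and none rose, with a median difference of -0.67. Got1 and Got2, the cytosolic and mitochondrial aspartate aminotransferases, fell by 0.93 ± 0.10 and 0.80 ± 0.11 (adjusted p = 9.43e-05 and 0.000451, limma). The mitochondrial malate dehydrogenase Mdh2 fell by 0.55 ± 0.18 (adjusted p = 0.039), and the cytosolic Mdh1 differed by -0.30 (adjusted p = 0.0525). Without both arrays of under 10000 bright probes, all 4 enzymes fell.

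The adenine nucleotide and phosphate carriers gave 1 fall among 6 measured members and a median difference of 0.16. That fall was of Slc25a3, which imports phosphate for ATP synthesis. Slc25a3 stood at 0.63, 0.49, 1.01 and 0.84 in double null hearts, against 1.42, 1.59, 1.47 and 1.59 in wild type hearts. The values were 0.94, 1.30, 1.48 and 1.56 in MuRF1 null MuRF2 het hearts and 1.41, 1.72, 1.57 and 1.26 in MuRF1 het MuRF2 null hearts. Double null hearts were the lowest group, 3 of the 4 lying below every heart of the other genotypes. Slc25a3 fell by 0.77 ± 0.14, a 1.71-fold difference and the largest of the family in size (adjusted p = 0.0018, limma).

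The second Slc25a3 probe, whose sequence is given above, moved the same way. It read 1.58, 0.75, 1.92 and 1.70 in double null hearts, against 2.29, 2.31, 2.40 and 2.31 in wild type hearts. Tested for itself among all probes kept, it fell by 0.84 ± 0.23 (adjusted p = 0.0183, limma), so both probes of the gene passed with similar sizes.

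Slc25a4 encodes the main ADP/ATP carrier of heart and skeletal muscle. Cy5 was saturated for its probe on all 4 wild type arrays, on 1 double null array and on 1 MuRF1 null MuRF2 het array, so the wild type values are lower bounds and their narrow spread cannot be read. It stood at 3.69, 4.30, 2.91 and 3.29 in double null hearts, against 3.56, 3.63, 3.63 and 3.59 in wild type hearts. MuRF1 null MuRF2 het hearts gave 4.25, 3.58, 3.99 and 3.38, and MuRF1 het MuRF2 null hearts 3.72, 3.46, 3.54 and 4.01. The fit gave a difference of -0.06 (95% interval -0.56 to 0.45, adjusted p = 0.883, limma) from these bounded values, and no fold is given. Under 7 of 32 other settings this probe passed as lower in double null hearts, with differences of -1.95 to -0.30, and under 5 its sign turned.

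The unsaturated second Slc25a4 probe read 2.61, 3.17, 1.97 and 2.32 in double null hearts, against 2.78, 3.03, 2.76 and 2.82 in wild type hearts. On this probe 3 of 4 double null arrays lay below all wild type arrays and 1 lay above them, with a difference of -0.33 ± 0.20 (adjusted p = 0.228).

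Slc25a5, the ADP/ATP carrier of many other tissues, was at -0.87, -0.85, -0.66 and -0.76 in double null hearts, against -0.86, -0.88, -0.74 and -0.77 in wild type hearts. It was at -0.36, -1.02, -0.50 and -0.69 in MuRF1 null MuRF2 het hearts and at -0.69, -0.76, -0.76 and -0.84 in MuRF1 het MuRF2 null hearts. Double null and wild type hearts overlapped almost wholly, with a difference of 0.03 (95% interval -0.21 to 0.27, adjusted p = 0.873, limma). Its sign turned under 8 of the 32 other settings. Slc25a24 and Slc25a25, carriers of ATP-magnesium and phosphate, differed by 0.43 and 0.34 without passing (adjusted p = 0.0762 and 0.106), while the second probe of Slc25a25 rose by 0.38 (adjusted p = 0.017). The Slc25a24 probe was well above background on 2 double null and 4 wild type arrays. Slc25a17, a carrier of the peroxisome, differed by 0.29 (adjusted p = 0.298).

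Kinases that pass on the phosphate of ATP fell alongside. Of 7 measured adenylate and creatine kinases, 4 fell and none rose in double null hearts. Mitochondrial creatine kinase Ckmt2 fell by 0.96 ± 0.10 (adjusted p = 8.17e-05, limma) and muscle creatine kinase Ckm by 0.89 ± 0.17 (0.00243). By contrast, none of the 5 measured outer membrane channels and pyruvate carrier subunits passed, and their median was -0.08.

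**Figure D3:**
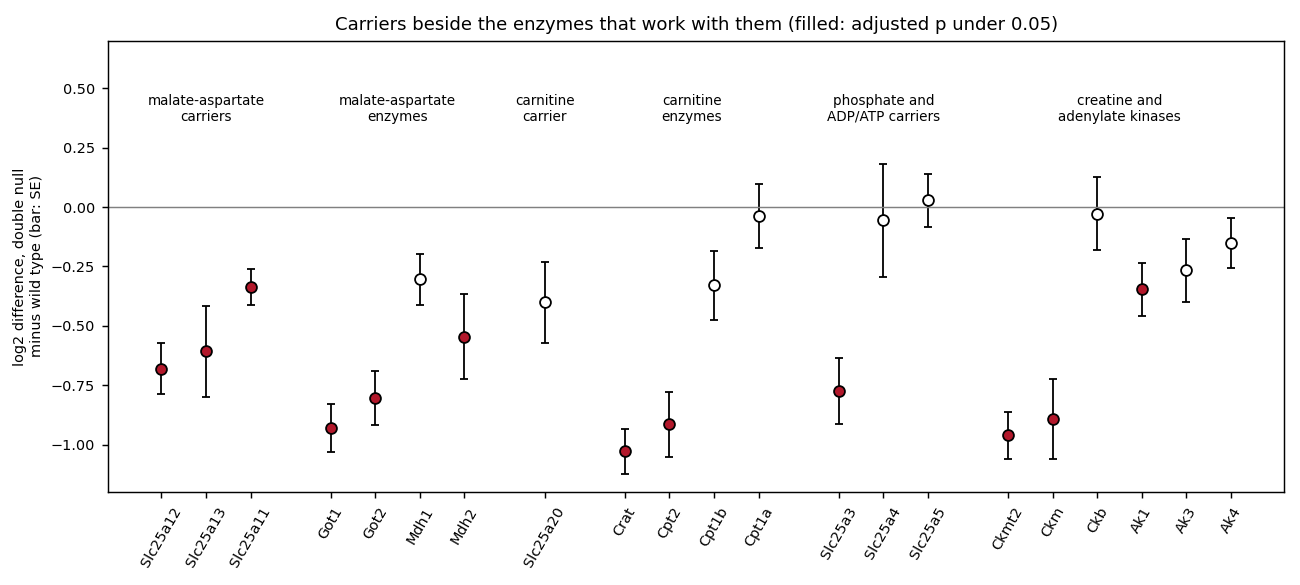
Log2 difference of double null minus wild type hearts (vertical axis, bars are SE) for carriers and for enzymes that handle the same metabolites, with filled points at an adjusted p under 0.05. Got1, Got2, Crat, Cpt2, Ckmt2 and Ckm lie between -1.03 and -0.80. The Slc25a4 point rests on saturated wild type spots.

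Among carriers of carnitine and amino acids, 1 of 6 measured members passed as lower and the median difference was -0.15. That member, Slc25a44, was well above background on 0 double null and 4 wild type arrays and adds nothing to the count. The carnitine-acylcarnitine carrier Slc25a20 stood at 0.70, 0.05, 0.30 and 0.24 in double null hearts, against 0.64, 0.78, 0.83 and 0.66 in wild type hearts. It stood at 0.22, 0.45, 1.07 and 1.00 in MuRF1 null MuRF2 het and at 0.57, 0.81, 0.50 and 0.60 in MuRF1 het MuRF2 null hearts. Of the double null hearts, 3 were below all wild type hearts and 1 lay among them. The difference was -0.40 (95% interval -0.76 to -0.04, adjusted p = 0.0946, limma) and did not pass. It passed as lower under 5 of 32 other settings, among them slide 3 alone (-0.47, adjusted p = 0.0188), and differences ran from -1.26 to -0.16 over all of them. The sequence of its probe is given as the main fatty acid carrier of the family.
Slc25a20 (chromosome 9): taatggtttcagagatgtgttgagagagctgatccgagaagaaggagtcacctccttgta

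Enzymes of the carnitine shuttle showed 2 falls among 4 and a median of -0.62. Carnitine acetyltransferase Crat fell by 1.03 ± 0.09 (adjusted p = 2.55e-05, limma) and carnitine palmitoyltransferase 2 (Cpt2) by 0.92 ± 0.14 (0.000544). The muscle form of the outer enzyme, Cpt1b, differed by -0.33 (adjusted p = 0.109).

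Slc25a44, which carries branched-chain amino acids, was dim. Its values were -0.07, -0.07, -0.03 and 0.04 in double null hearts, against 0.18, 0.26, 0.08 and 0.13 in wild type hearts. MuRF1 null MuRF2 het hearts gave 0.04, 0.14, 0.07 and 0.06, and MuRF1 het MuRF2 null hearts 0.25, 0.24, 0.20 and 0.10. It was well above background on all 4 arrays of wild type and of MuRF1 het MuRF2 null hearts and on none of double null or MuRF1 null MuRF2 het hearts. It passed the filter only through these 2 brighter groups, so its level in double null hearts is a bound, no fold is given, and its place among the 9 calls (adjusted p = 0.0457, limma) adds nothing to their count. The call was lost when any of 13 of the 16 arrays was left out, and under 20 of 31 other settings in all. Slc25a29, which carries basic amino acids, differed by -0.41 (adjusted p = 0.0534). Its second probe was lower (adjusted p = 0.0039, limma) but was well above background on 0 double null and 4 wild type arrays. Its double null level is thus a bound and no size is given. Slc25a38, a glycine carrier needed for haem synthesis, differed by -0.08. The less studied Slc25a45 and Slc25a47 differed by -0.10 and 0.34 (adjusted p = 0.397 and 0.111). The Slc25a45 probe was well above background on 0 double null and 4 wild type arrays, so its double null level is a bound.

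Carriers of cofactors, nucleotides and glutathione had 1 rise among 8 measured members and a median of -0.09. The rise was of Slc25a33, which carries pyrimidine nucleotides. It read 1.65, 0.82, 1.04 and 1.08 in double null hearts, against -0.19, 0.03, 1.15 and 0.57 in wild type hearts. The values were 1.43, 0.56, 1.06 and 1.10 in MuRF1 null MuRF2 het and 0.50, 0.78, 0.81 and 0.41 in MuRF1 het MuRF2 null hearts. One wild type heart was above 3 of the double null hearts, so the groups overlapped. Slc25a33 rose by 0.76 ± 0.26 (1.69-fold, adjusted p = 0.044, limma), with differences of 1.32 on slide 1 and 0.20 on slide 3 (adjusted p = 0.152 and 0.442). The call was lost when any of 11 single arrays was left out, with median centring of the arrays the difference was -0.20, and its second probe differed by 0.27 (adjusted p = 0.334).

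None of the other 7 passed. Among them, Slc25a51 (NAD+), Slc25a16, Slc25a26 (S-adenosylmethionine), Slc25a36 (pyrimidine nucleotides), Slc25a39 (glutathione) and Slc25a32 (folate) differed by -0.18 to 0.18. The Slc25a16 probe was well above background on 0 double null and 4 wild type arrays, and the Slc25a32 probe on 1 and 3. The probes of Slc25a39 differed from each other in outcome: the brighter differed by -0.03 (adjusted p = 0.868) and the other fell by 0.39 ± 0.11 (adjusted p = 0.0209 among all probes kept). This dimmer Slc25a39 probe was well above background on 2 double null and 4 wild type arrays, which limits its size. The iron carriers Slc25a28 and Slc25a37 (mitoferrins) differed by -0.11 and 0.24 without passing.

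Of 3 uncoupling protein-like carriers, Slc25a14 rose and none fell. Slc25a14 stood at -0.13, -0.01, -0.05 and -0.15 in double null hearts, against -0.50, -0.43, -0.24 and -0.33 in wild type hearts. It stood at -0.03, -0.52, -0.29 and -0.25 in MuRF1 null MuRF2 het and at -0.39, -0.32, -0.44 and -0.34 in MuRF1 het MuRF2 null hearts. All double null hearts were above all wild type hearts, by 0.29 ± 0.09 between means (1.23-fold, adjusted p = 0.0352, limma). On the authors' log ratios the difference was 0.0078 (adjusted p = 0.991). The call was lost when any of 6 single arrays was left out. With median centring the difference was -0.25, in a setting that moved the median of all genes to -0.49. Slc25a30 and Slc25a27 differed by -0.22 and 0.14 without passing. Their probes were well above background on 0 double null and 3 wild type arrays each, so their double null levels are bounds. Of 5 proteins of the family with other symbols, Ucp3, the uncoupling protein of muscle, fell by 0.72 ± 0.13 (adjusted p = 0.00227) and Mtch1, an outer membrane protein, rose by 0.43 ± 0.14 (adjusted p = 0.0391), a rise that turned to a lower value with median centring.

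Slc25a46 is a family member of the outer membrane that takes part in mitochondrial fission and fusion. Its values were -0.63, -0.21, -0.20 and -0.37 in double null hearts, against -0.07, 0.17, 0.06 and 0.13 in wild type hearts. MuRF1 null MuRF2 het hearts stood at -0.03, 0.11, -0.15 and -0.31, and MuRF1 het MuRF2 null hearts at 0.14, -0.01, -0.01 and -0.01. Double null hearts were all below the wild type hearts, and MuRF1 null MuRF2 het hearts overlapped both. Slc25a46 fell by 0.42 ± 0.11 (1.34-fold, adjusted p = 0.0128, limma). Its 2 other probes differed by -0.19 and -0.32 and did not pass (adjusted p = 0.103 and 0.102). They were well above background on 0 and 1 of 4 double null arrays.

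Subunits of the machinery that brings carriers into the inner membrane were measured too. Of 14 such subunits, 3 rose and 1 fell, with a median of 0.15. The receptors Tomm20 and Tomm22 rose by 0.46 ± 0.13 and 0.58 ± 0.17 (adjusted p = 0.0224 and 0.0239, limma) and the small subunit Tomm7 by 0.44 ± 0.14 (0.0334). With median centring these 3 were lower in double null hearts. The subunit that fell was Timm29, by 0.26 ± 0.09 (adjusted p = 0.049, limma). Tomm70a, Timm22 and Timm9 differed by 0.09, -0.02 and -0.09 (adjusted p = 0.439, 0.893 and 0.56). Timm10 and Timm8b differed by 0.54 and 0.57, also without passing (adjusted p = 0.063 and 0.0656).

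Slides 1 and 3 allowed the comparison within a slide, with 2 arrays a group. Of the 32 carriers tested, 26 had the same direction on both slides. The 9 that passed did too, but they were called from these same arrays. Agreement of slides was not counted over all genes, so it is no result about the family. Slc25a12 was lower by 0.64 on slide 1 and by 0.72 on slide 3, Slc25a13 by 0.61 on both, and Slc25a3 by 0.94 on slide 1 and 0.60 on slide 3. On slide 1 alone no gene of the 12331 passed, and on slide 3 alone 7 carriers did, with 18.3% of all genes. Leaving out single arrays gave 5 carriers without wild type 2 (13.5% of all genes) and 14 without MuRF1 null MuRF2 het 1 (29.9% of all genes). Without any other single array 6 to 10 passed (12.5% to 29.2% of all genes). Slc25a3, Slc25a11, Slc25a12, Slc25a22 and Slc25a46 passed whichever single array was left out. Without both arrays of under 10000 bright probes (double null 2 and MuRF1 null MuRF2 het 1) 8 carriers passed, with 29.3% of all genes.

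**Figure D4:**
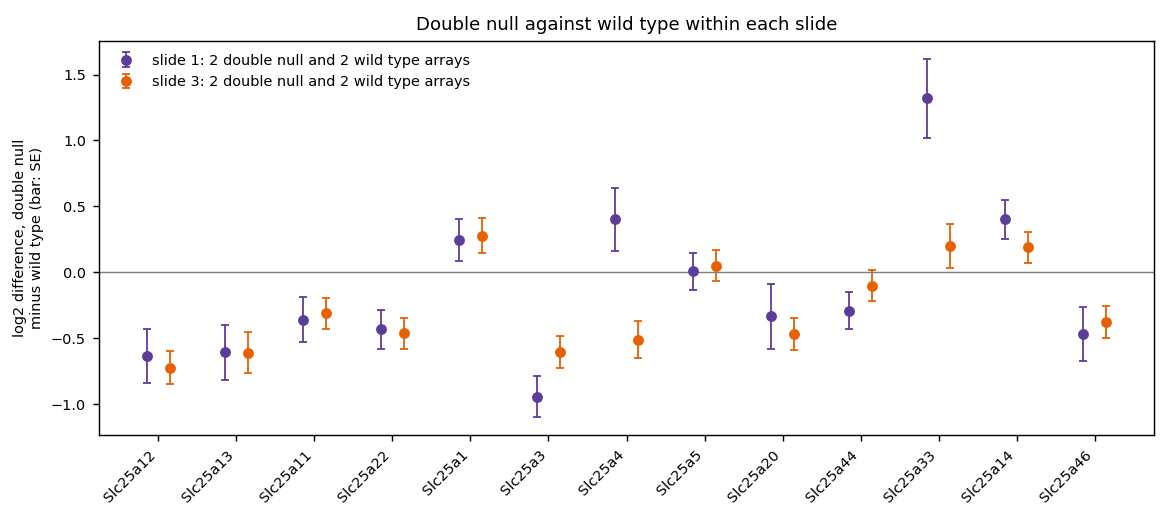
Log2 difference of double null minus wild type hearts (vertical axis, bars are SE) for 13 carriers on slide 1 and on slide 3, each with 2 arrays a group. Slc25a12, Slc25a13, Slc25a11, Slc25a22 and Slc25a46 lie at like values under 0 on both slides. The Slc25a4 points rest on saturated wild type spots.

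Markers of other heart cells also differed between these groups. Of 8 endothelial markers, 6 fell in double null hearts against wild type, and the median ratio of the list ran from 0.01 to 0.41 on double null arrays, against 0.83 to 1.07 on wild type arrays. Of 7 fibroblast markers 3 rose (list medians -1.47 to -0.59 on double null and -1.69 to -1.55 on wild type arrays), and of 9 heart muscle markers 2 fell (3.85 to 4.40 on double null and 4.02 to 4.15 on wild type arrays). Of 6 adipocyte markers 1 rose (-2.88 to -1.17 on double null and -3.33 to -2.86 on wild type arrays), and of 4 leukocyte markers 1 rose (-0.17 to -0.03 on double null and -0.07 to 0.16 on wild type arrays). None of 4 erythroid markers passed (-1.09 to -0.15 on double null and -1.64 to -0.89 on wild type arrays), nor any of 5 fetal liver and pup genes (-2.92 to -1.75 on double null and -3.15 to -2.90 on wild type arrays). Their part in the carrier differences was not tested, and in whole hearts fewer cells of a type and less RNA per cell cannot be told apart. The number of bright probes moved with genotype too, and with it as a covariate 7 carriers passed, with 14.7% of all genes.

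With 1 functional allele left, no carrier passed. In MuRF1 null MuRF2 het against wild type hearts, 0 of 32 passed by limma, beside 1.01% of all genes (0.316% higher, 0.697% lower). Without adjustment 6 carriers had a p under 0.05, which was not counted over all genes. Slc25a12 had the lowest adjusted p (difference -0.37, 95% interval -0.59 to -0.14, adjusted p = 0.0909), with no overlap of arrays. Slc25a22 differed by -0.28 (adjusted p = 0.111), also with no overlap, and Slc25a33 by 0.65 (adjusted p = 0.159). Arrays did not overlap for 3 of 32 carriers, beside 12.7% of all genes. Slc25a3 differed by -0.20, with a 95% interval of -0.50 to 0.10. The lack of a call does not show that these hearts equal wild type hearts. Without MuRF1 null MuRF2 het 2, 4 carriers passed (12.5%), beside 12.1% of all genes.

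In MuRF1 het MuRF2 null against wild type hearts, 0 of 32 passed by limma, beside 1.87% of all genes (0.624% higher, 1.24% lower). Without adjustment 4 carriers had a p under 0.05, which was not counted over all genes. These were Slc25a22 (-0.35, adjusted p = 0.0558), Slc25a1 (-0.29, adjusted p = 0.123), Slc25a11 (-0.21, adjusted p = 0.168) and Slc25a12 (-0.25, adjusted p = 0.254), all lower and without overlap of arrays. Arrays did not overlap for 5 of 32 carriers, beside 20.7% of all genes. Slc25a3 differed by -0.03 (95% interval -0.32 to 0.27) and Slc25a13 by 0.07 (-0.33 to 0.48). Of the enzymes beside the carriers, Mdh1 fell by 0.53 ± 0.11 (adjusted p = 0.0188, limma). The 3 comparisons with wild type share the same 4 wild type arrays, so their values for a gene are not independent.

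**Figure D5:**
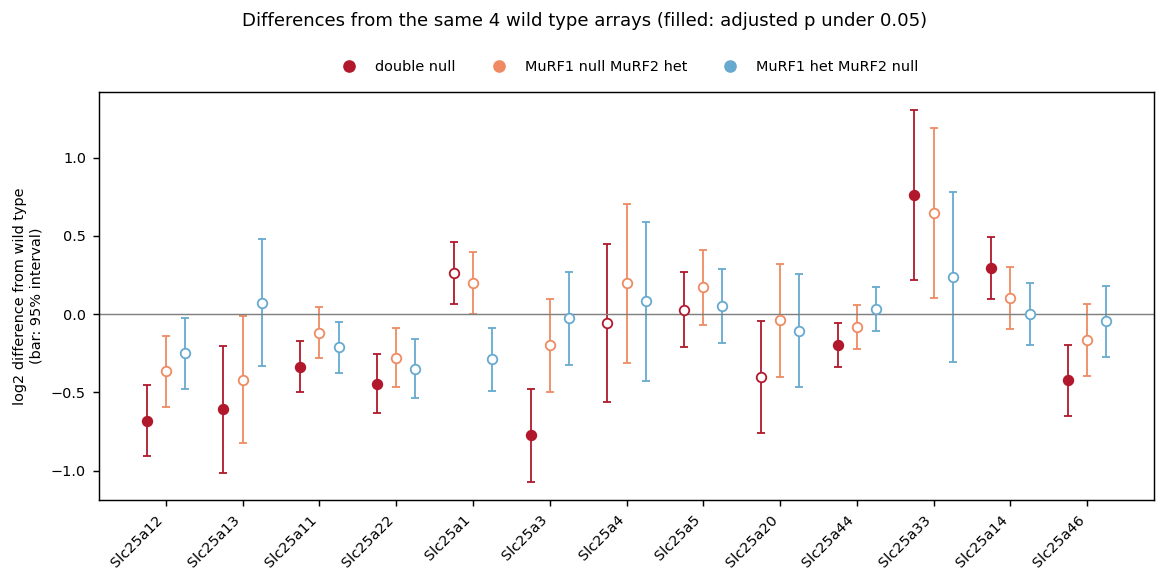
Log2 difference from the same 4 wild type arrays (vertical axis, bars are 95% intervals) for 13 carriers in each of the 3 mutant genotypes, double null at the left of each trio. Filled points have an adjusted p under 0.05 and all 9 of them belong to double null hearts; Slc25a12 and Slc25a22 are under 0 with intervals that leave out 0 in all 3 genotypes.

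Double null hearts were also set against the hearts that kept an allele. Against MuRF1 null MuRF2 het hearts, 0 of 32 carriers passed by limma, beside 0.332% of all genes (0.154% higher, 0.178% lower). Without adjustment 5 carriers had a p under 0.05, which was not counted over all genes. Slc25a3 came nearest, with a difference of -0.57 (95% interval -0.87 to -0.28, adjusted p = 0.102), and its arrays overlapped. Among the enzymes, Got1, Crat, Cpt2 and Ckmt2 fell in this comparison, by 0.76, 0.65, 0.69 and 0.73 (adjusted p = 0.00664, 0.0113, 0.0386 and 0.00664, limma).

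Against MuRF1 het MuRF2 null hearts, 7 of 32 carriers passed (21.9%), beside 26.3% of all genes (13.6% higher, 12.7% lower). Slc25a3 fell by 0.75 ± 0.14 (adjusted p = 0.00182, limma), Slc25a12 by 0.43 ± 0.11 (0.00889), Slc25a13 by 0.68 ± 0.19 (0.0174) and Slc25a46 by 0.38 ± 0.11 (0.0183). Slc25a44 was lower (adjusted p = 0.0199), with its probe not well above background on any double null array, so it adds nothing to the count of 7. Slc25a14 rose by 0.29 ± 0.09 (0.0317). Slc25a1 passed with a ratio higher by 0.55 ± 0.09 (adjusted p = 0.000996), but its probe was above background on 1 of 4 double null arrays and on all 4 MuRF1 het MuRF2 null arrays, so no fold is given. Slc25a11 and Slc25a22, which passed against wild type, differed here by -0.12 and -0.10 (adjusted p = 0.239 and 0.432). Without MuRF1 het MuRF2 null 1, or without MuRF1 het MuRF2 null 2, 4 carriers passed (12.5%), beside 17.6% of all genes. These groups lie on different slides, and slide and genotype cannot be told apart.

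The 250 bases before the start of 4 carriers that fell are shown because these genes fell in the same hearts. Of the 44 genes, 33 had a promoter in the RefSeq table of the mouse assembly GRCm38.p6, among them 5 of the 7 that fell. Capitals mark matches on either strand to the letters GCGC, any 2 bases and GCGC (NRF1, nuclear respiratory factor 1), CCGGAAG (GABPA, nuclear respiratory factor 2), AAGGTCA (ESRRA, an estrogen-related receptor), CCAAT (the CCAAT box), CTA, AAAA and TAG in a row (MEF2, a muscle factor) and the E2F letters TTTCGCGC and TTTGGCGC.
Slc25a3, chr10:91123968-91124217, minus strand: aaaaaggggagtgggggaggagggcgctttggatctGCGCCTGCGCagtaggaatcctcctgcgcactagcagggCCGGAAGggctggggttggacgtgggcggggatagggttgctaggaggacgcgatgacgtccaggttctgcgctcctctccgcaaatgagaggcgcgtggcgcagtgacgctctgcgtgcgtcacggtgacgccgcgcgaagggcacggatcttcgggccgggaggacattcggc
Slc25a12, chr2:71367756-71368005, minus strand: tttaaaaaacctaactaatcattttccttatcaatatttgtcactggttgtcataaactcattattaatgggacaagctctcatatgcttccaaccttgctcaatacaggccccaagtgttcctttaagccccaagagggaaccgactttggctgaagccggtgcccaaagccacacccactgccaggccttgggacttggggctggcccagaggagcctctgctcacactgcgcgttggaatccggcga
Slc25a13, chr6:6217174-6217423, minus strand: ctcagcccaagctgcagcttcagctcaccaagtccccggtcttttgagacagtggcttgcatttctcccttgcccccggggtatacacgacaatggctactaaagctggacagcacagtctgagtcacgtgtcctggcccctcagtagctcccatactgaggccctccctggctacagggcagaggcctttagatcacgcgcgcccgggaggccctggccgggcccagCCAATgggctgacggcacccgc
Slc25a11, chr11:70647040-70647289, minus strand: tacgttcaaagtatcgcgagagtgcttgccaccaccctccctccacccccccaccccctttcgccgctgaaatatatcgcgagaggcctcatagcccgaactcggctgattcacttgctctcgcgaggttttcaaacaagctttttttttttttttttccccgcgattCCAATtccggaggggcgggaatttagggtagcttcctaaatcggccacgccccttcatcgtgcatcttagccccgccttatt
The NRF1 letters were in 4.98% of all 32851 promoters of this length and in 1 of the 24 tested carriers with a promoter, Slc25a3, starting 214 bases before its start. The GABPA letters were in 6.91% of all promoters and in 5 of these 24, Slc25a3, Slc25a4, Slc25a17, Slc25a20 and Slc25a38, of which 1 fell. The CCAAT letters were in 33.8% of all promoters and in 13 of 24 carriers, 3 of them among those that fell. The ESRRA letters (4.08% of all promoters), the MEF2 letters (0.103%) and both E2F forms (0.256% and 0.417%) were in none of the 24, which says only that these letters are not in these windows. The promoter of Slc25a3 was 66.4% G or C and that of Slc25a12 49.6%, beside a median of 52.4% over all promoters. A match is a description of letters and says nothing of binding.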

How the data were processed

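RNA of 16 mouse hearts, 4 per genotype by the labels, was measured on two-colour Agilent arrays with heart in Cy5 and a pup pool in Cy3, per the labels' channel entries (the labelling protocol names only Cy3). Per the file headers, the deposited files hold mean spot intensity and median background intensity from Feature Extraction, version 9.1.3.1 (9.5.3.1 on the slide of MuRF1 het MuRF2 null hearts). They also hold the authors' log10 ratio after spatial detrending, background correction and dye normalisation. The deposited series matrix holds log2 ratios, found from the values to be that ratio minus the median of each probe; the sources used here do not give the steps.

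Here R 4.3.3, limma 3.58.1 and the data.table package (1.17.8) were used: normexp background correction with an offset of 50, loess within arrays with control and irregular spots unweighted, the mean of spots per probe, a filter (Cy5 well above background on at least 4 of 16 arrays, 16810 probes) and for each gene the brightest probe by mean log2 Cy5 intensity. Symbols came from RefSeq by accession, symbol or synonym; 8 probes tied to the family only by a synonym were set aside. Saturated spots were kept. One mean per group was fitted over all 16 arrays with moderated errors, two-sided, with Benjamini-Hochberg adjustment over 12331 genes and a threshold of 0.05. The fit was tested on simulated data. The number of arrays limits the precision.

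Values of every array are given for carriers past the threshold against wild type and for Slc25a1, Slc25a3, Slc25a4, Slc25a5, Slc25a11, Slc25a12 and Slc25a20. Other genes come from lists by function, up to 3 named per list and more for the import subunits. The members and lists were chosen with earlier results of these data known. Alternatives changed the background offset, the normalisation, the filter, the probe rule, the array weights, a brightness covariate, the slide, the replicate block and single arrays. The fit without both dim arrays and the fit of single probes were added after seeing the data. The values of 1 carrier and 1 kinase are not reported here.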

Additional observations from a re-analysis of the deposited data

Results flagged for a closer look

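Within groups of 4 arrays, 52 sets of values of the 13 carriers given array by array were examined for an array far from the other 3, and 2 were found; chance alone gives about 1 in 20. In MuRF1 null MuRF2 het hearts, Slc25a12 stood at 0.84 on array 1, while the other 3 arrays lay between 1.12 and 1.14. That array had 6402 probes above background, the fewest of its group. In MuRF1 het MuRF2 null hearts, Slc25a46 stood at 0.14 on array 1, while the other 3 lay at -0.01.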

How the results depend on the processing

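Depth of signal limited the falls of Slc25a22, Slc25a44 and the second Slc25a29 probe. It also limited the values of Slc25a1, Slc25a16, Slc25a27, Slc25a30, Slc25a32 and Slc25a45. All these probes were above background on few or no double null arrays, and saturation limits Slc25a4. In double null against wild type hearts, 9 carriers passed. The count was 20 with median centring (7 of the same 9, none higher; 55.8% of all genes), 17 with array weights (a fit that stopped before converging; 65.7% of all genes), 0 on slide 1 alone and 5 to 14 with single arrays left out. Other settings gave 6 to 12 (9.03% to 30.0% of all genes). Over all genes the count was 2744, and 6883 with median centring, 8106 with array weights, 0 on slide 1, 1413 of the 4717 genes left by a filter on all arrays (30.0%) and 1815 with brightness as a covariate; leaving out single arrays gave 1545 to 3688.

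In MuRF1 null MuRF2 het against wild type hearts, 19 carriers passed with median centring (59.4%, beside 59.8% of all genes), 5 with array weights (18.1% of all genes), 1 with the covariate (0.754%) and 0 to 4 with single arrays left out. In MuRF1 het MuRF2 null against wild type hearts, 5 passed with median centring (20.6% of all genes), 2 on Cy5 alone (7.92%), 4 with array weights (24.9%), 3 with the covariate (12.1%), 2 without both dim arrays (8.39%) and 0 to 1 with single arrays left out. In double null against MuRF1 null MuRF2 het hearts, 1 passed with scaling (0.60% of all genes), 6 with array weights (23.0%), 1 with the covariate (2.51%), 1 without both dim arrays (3.81%) and 0 to 1 with single arrays left out. In double null against MuRF1 het MuRF2 null hearts, 7 passed, and 1 with median centring (7.06% of all genes), 12 on Cy5 alone (31.9%), 4 of 13 with a filter on all arrays (32.2%), 20 with array weights (65.9%), 4 with the covariate (21%) and 4 to 10 with single arrays left out. With single arrays left out, 0.187% to 12.1% and 0.56% to 3.36% of all genes passed in the comparisons with wild type. The shares were 0.0243% to 2.8% and 17.6% to 31.9% in the comparisons of double null hearts, in the order given. The causes were not tested.

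Signs turned for Slc25a5 in double null against wild type hearts, to -0.24 with an offset of 16, -1.60 with median centring, -0.068 with scaling, -0.22 on the authors' log ratios and on the series matrix, -0.32 on Cy5 alone, -0.10 with the covariate and -0.014 without double null 3 (-0.014 to 0.057 over all arrays left out singly). Slc25a4 turned to 0.41 with scaling, 0.35 on Cy5 alone, 0.16 without double null 3, 0.03 without double null 4 (-0.31 to 0.16 over all arrays left out singly) and 0.40 on slide 1. With median centring Slc25a1 stood at -0.091, Slc25a14 at -0.25 and Slc25a33 at -0.20. Against MuRF1 het MuRF2 null hearts, Slc25a44 stood at 0.034 with median centring and Slc25a14 at -0.11 on the authors' log ratios and on the series matrix.

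Over 24 pairs of same-numbered samples, the correlation of their deviations from the group means ran from -0.611 to 0.344, and 9 were over 0.1. Pairs of unlike number were not examined, so whether the numbers pair samples was not settled. With the replicate number as a block, 6 carriers passed in double null against wild type hearts (18.8%, beside 19.3% of all genes). Against MuRF1 het MuRF2 null hearts 6 passed (18.8%, beside 23.7% of all genes).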
